A study of Caenorhabditis elegans with 14 samples.

Results

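The let-7 family described here is a set of 4 microRNAs of Caenorhabditis elegans: mir-84 (transcript B0395.4a), mir-48 (F56A12.3a), let-7 (C05G5.6a) and mir-241 (F56A12.4a). They were chosen by these transcript identifiers, without use of their values, from the 203 microRNA rows and 16641 transcripts of all classes listed in each small RNA table. Of the 14 samples in the series, the 2 small RNA libraries were used, and the 12 samples of immunoprecipitated chromatin or input were left aside. Both were made from whole N2 animals, the wild-type strain, at the young adult stage. RNA interference was by feeding, in which bacteria carried the empty vector L4440 for control RNAi or expressed double-stranded RNA against snpc-4. The labels differ on whether feeding began at the first or the second larval stage. SNPC-4 is the worm counterpart of a subunit of the small nuclear RNA activating protein complex, and the comparison asks how small RNAs differ when it is depleted.

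A microRNA is cut from a hairpin precursor and guides an Argonaute protein to messenger RNAs that pair with its 5′ end, the seed, which lowers their output. The let-7 family members share this seed, and in worms they belong to the heterochronic pathway, which sets the order of larval cell fates. mir-48, mir-84 and mir-241 act together at the passage between early larval stages by repressing hbl-1, and let-7 acts at the passage from larva to adult by repressing lin-41. mir-48 and mir-241 are neighbouring genes on chromosome V, while let-7 and mir-84 lie apart from each other on the X chromosome.

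Neither group was replicated: with 1 library each there is no measure of spread and no test, and what follows sets these 2 libraries side by side, not their conditions. Intervals are 95% and hold counting error alone. Since PCR copies were not marked by molecular identifiers, reads are not independent molecules and the intervals can be narrower than the true error. Abundance is given as deposited RPM, the count scaled to a library total, with no correction for length. Worked out from the deposited counts and RPM values, that total was 20413480 for control RNAi and 20875010 for snpc-4 RNAi. The listed microRNAs had 812616 and 954777 counts. For counting error alone, a count of 0 would allow up to 0.147 and 0.144 RPM, which is 3 counts of each total. Zeros in these tables followed the order of listing, as described with lin-4, so this is no limit on the RNA itself. For the same reason, ranks and shares of the members among microRNAs hold for the listed counts, not for the RNA of the animals.

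All 4 members had more reads in the snpc-4 RNAi library, but by different amounts. mir-241, the least abundant, was 2.54-fold higher (interval 2.32 to 2.78). With 1 read added to each count, its log2 ratio was the highest among the 76 microRNAs with a mean of at least 10 counts over both libraries. A microRNA with few reads, described further on, had a higher plain ratio. mir-48, let-7 and mir-84 were 1.13-fold to 1.18-fold higher on the RPM scale, close to the 1.15-fold ratio of all microRNAs together (1.15 to 1.15). The family holds 46.3% and 46.7% of that total, so its members were compared in part with themselves. MicroRNAs outside the family had a summed ratio of 1.14 (1.14 to 1.15), or 1.03 (1.03 to 1.04) without mir-1. Relative to the microRNA total, mir-84 was lower in the snpc-4 RNAi library, with a ratio of 0.988, and mir-241 remained 2.20-fold higher.

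mir-84 had 191953 counts under control RNAi, or 9403 RPM (exact Poisson interval 9361 to 9445). In the snpc-4 library it had 222719 counts, or 10669 RPM (10625 to 10714). The ratio was 1.13 (exact conditional binomial interval 1.13 to 1.14), the lowest of the 4. By listed counts it was the most abundant microRNA under control RNAi and ranked 2 under snpc-4 RNAi. There mir-1, a microRNA of muscle, was ahead of it with 230145 counts.

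mir-48 had 163287 counts, or 7999 RPM (7960 to 8038), under control RNAi. It had 197065 counts, or 9440 RPM (9399 to 9482), under snpc-4 RNAi, and the ratio was 1.18 (1.17 to 1.19). It ranked 3 among the microRNAs in both libraries. The gap to mir-84 was a little narrower under snpc-4 RNAi: there were 1.18 reads of mir-84 for each read of mir-48 under control RNAi and 1.13 under snpc-4 RNAi.

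let-7, the founder of the family, had 20153 counts, or 987 RPM (974 to 1001), under control RNAi. It had 24095 counts, or 1154 RPM (1140 to 1169), under snpc-4 RNAi, a ratio of 1.17 (1.15 to 1.19). It ranked 7 in both libraries. Its ratio lay within counting error of that of mir-48: the ratio of let-7 divided by that of mir-48 was 0.991, with an interval of 0.971 to 1.01 that includes 1.

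mir-241 had 673 counts, or 33.0 RPM (30.5 to 35.6), under control RNAi. It had 1745 counts, or 83.6 RPM (79.7 to 87.6), under snpc-4 RNAi. The 2 intervals are far apart, and the member ranked 31 among the microRNAs under control RNAi and 21 under snpc-4 RNAi. On the log2 scale, with 1 read added to each count, its ratio was 1.34, against 0.24 for mir-48, 0.23 for let-7 and 0.18 for mir-84.

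**Figure D1:**
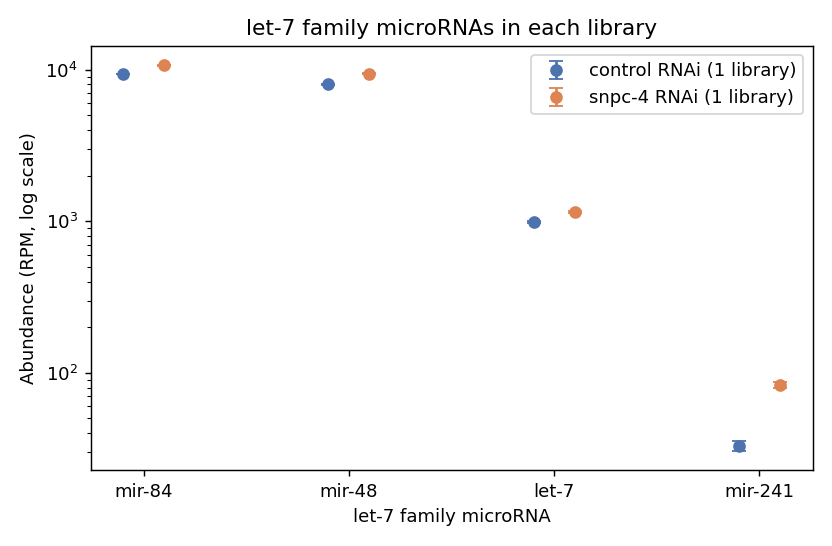
Abundance of each let-7 family microRNA in RPM (vertical axis, log scale) in the control RNAi library (blue) and the snpc-4 RNAi library (orange), 1 library each, with exact 95% Poisson intervals. The order mir-84, mir-48, let-7, mir-241 is the same in both libraries, and on this log axis, where distance stands for a ratio, the widest gap between libraries is that of mir-241, from 33.0 to 83.6 RPM.

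The order of the members was the same in both libraries, and no neighbours in that order had overlapping Poisson intervals within a library. The distance from the most to the least abundant member shortened, from 285 reads of mir-84 per read of mir-241 under control RNAi to 128 under snpc-4 RNAi. The ratio of mir-241 was 2.23 times that of mir-84 (2.04 to 2.44) and 2.17 times that of let-7 (1.98 to 2.37). Among the other 3 members such ratios lay between 0.991 and 1.04. These ratios between members do not depend on how the libraries are scaled to each other. Their intervals are normal approximations on the log scale and cover counting error only.

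Summed over the 4 members, the family had 376066 counts under control RNAi and 445624 under snpc-4 RNAi. The summed abundance was 18422 RPM (18364 to 18481) under control RNAi. Under snpc-4 RNAi it was 21347 RPM (21285 to 21410), which is 1.16-fold higher (1.15 to 1.16). mir-48 made up 49.3% of the difference in RPM, mir-84 43.3%, let-7 5.71% and mir-241 1.73%. Without mir-241 the family ratio was still 1.16 (1.15 to 1.16), as mir-241 supplies too few reads to move the total.

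Within the family, mir-84 and mir-48 together supplied nearly all reads. The share of mir-84 was 51.0% (exact Clopper-Pearson interval 50.9% to 51.2%) under control RNAi and 50.0% (49.8% to 50.1%) under snpc-4 RNAi, a difference of -1.06 percentage points (Newcombe interval -1.28 to -0.85). The share of mir-48 was 43.4% (43.3% to 43.6%) and 44.2% (44.1% to 44.4%), a difference of 0.80 points (0.59 to 1.02). let-7 held 5.36% (5.29% to 5.43%) and 5.41% (5.34% to 5.47%). Its difference of 0.048 points had an interval of -0.050 to 0.15, so no difference was detectable at this depth. The share of mir-241 was 0.179% (0.166% to 0.193%) under control RNAi and 0.392% (0.373% to 0.410%) under snpc-4 RNAi.

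Among all listed microRNA counts the family kept nearly the same weight. It held 46.3% (46.2% to 46.4%) under control RNAi and 46.7% (46.6% to 46.8%) under snpc-4 RNAi, a difference of 0.39 percentage points (0.25 to 0.54). By member, mir-84 held 23.6% and 23.3% of microRNA counts, mir-48 20.1% and 20.6%, let-7 2.48% and 2.52%, and mir-241 0.0828% and 0.183%. The share of mir-84 was lower by a little more than counting error (-0.29 points, -0.42 to -0.17), and that of mir-48 was higher (0.55 points, 0.43 to 0.66). For let-7 the difference of 0.044 points had an interval of -0.0026 to 0.090, which includes 0.

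The near-constant share of the family among microRNAs leaned on mir-1. mir-1 had 172025 counts under control RNAi and 230145 under snpc-4 RNAi, a ratio of 1.31 (1.30 to 1.32). With mir-1 left out of the denominator, the family held 58.7% (58.6% to 58.8%) and 61.5% (61.4% to 61.6%), a difference of 2.79 points. The microRNAs other than the family and mir-1 had a summed ratio of 1.03 (1.03 to 1.04), below that of the family.

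**Figure D2:**
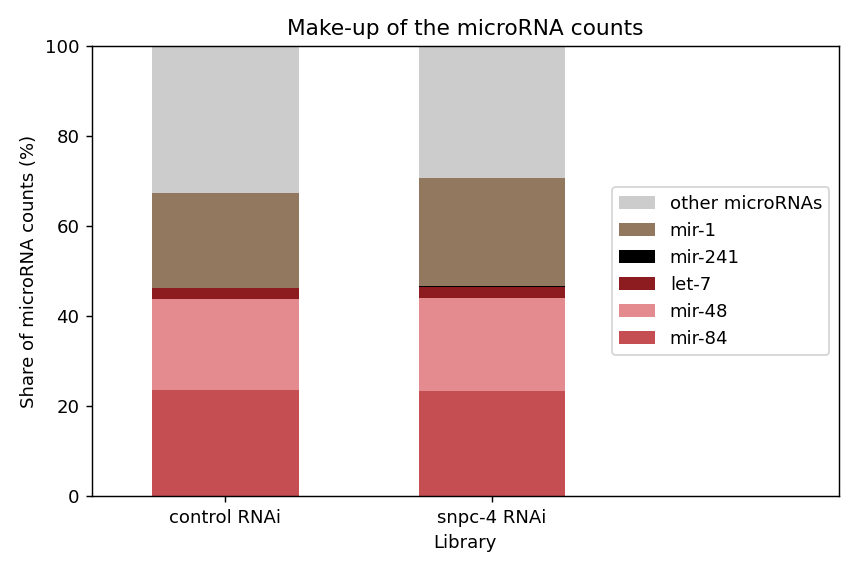
Share of all microRNA counts (vertical axis, percent, from 0 to 100) held by each let-7 family member, by mir-1 and by the remaining microRNAs in the control RNAi and snpc-4 RNAi libraries. The 4 members together hold 46.3% and 46.7%, while mir-241, at 0.0828% and 0.183%, is too thin a band to read by eye.

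Against the other microRNAs, the direction of the members was common and the size of the mir-241 ratio was not. Among the 76 microRNAs above the minimum mean of 10 counts, 67.1% were higher under snpc-4 RNAi on the RPM scale (51 microRNAs), and all 4 members were among them. The members' median log2 ratio was 0.23, and that of all 76, members included, was 0.18, with quartiles of -0.11 and 0.39. Outside the family, 72 microRNAs had a median of 0.11, with quartiles of -0.12 and 0.39, and 47 were higher and 25 lower. mir-84, mir-48 and let-7 lay between the quartiles of either set. Relative to the microRNA total, 37 were higher and 39 lower, and mir-84 was then on the lower side.

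At least 2-fold higher values were found for 5.26% of these microRNAs, which is 4 of 76, and 1 of the 4 was a family member, mir-241. Named after their values were seen, the other 3 were mir-355 (478 and 1012 counts), mir-356.2 (16 and 35 counts) and mir-52 (7 and 19 counts). mir-52 had a plain ratio of 2.65, above that of mir-241, but on few reads, with an interval of 1.07 to 7.47. The only microRNA at least 2-fold lower, 1.32% of the 76, was mir-35 (15 and 5 counts). At a limit of 1.5-fold, 10.5% were higher, and mir-241 was again the only member among them.

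Counting noise is small at the depth of mir-241, and microRNAs of like abundance had lower ratios. The 5 microRNA transcripts next above it and the 5 next below it in mean count, with means from 828 to 1700 counts, had ratios from 0.810 (mir-231, 1537 and 1273 counts) to 1.86 (mir-239.2, 723 and 1377 counts), with a median of 1.05. This comparison was chosen after the values were seen. Among the 24 microRNAs outside the family with a mean of at least 1000 counts, log2 ratios ran from -0.57 to 0.90, all below the 1.34 of mir-241. Of these 24, 17 were higher and 7 lower. Below both of these ranges of mean count, mir-355, with a mean of 745 counts, came nearer to mir-241, with a ratio of 2.07 (1.86 to 2.31).

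**Figure D3:**
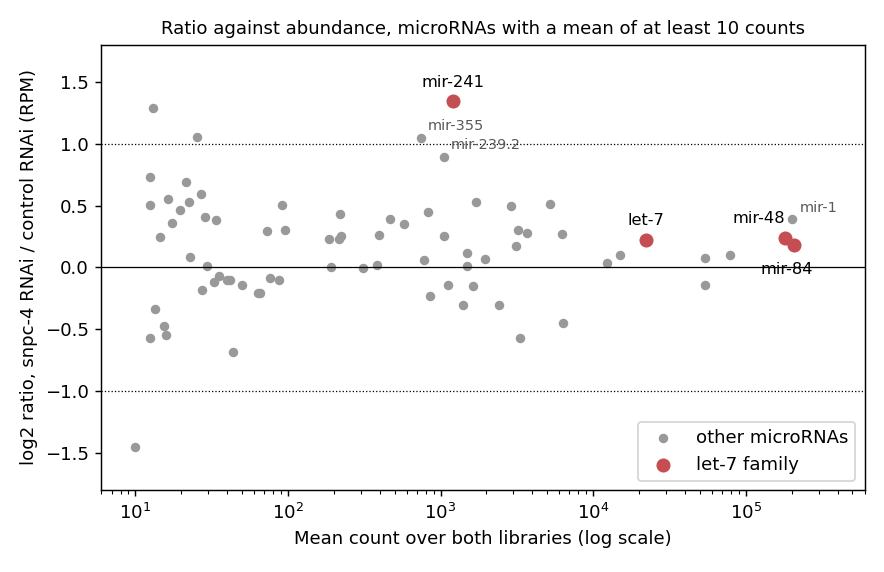
log2 ratio of RPM, snpc-4 RNAi over control RNAi with 1 read added (vertical axis), against mean count (horizontal axis, log scale), for the 76 microRNAs with a mean of at least 10 counts; dotted lines mark 2-fold. mir-84, mir-48 and let-7 (red) lie between 0.18 and 0.24, and mir-241 lies at 1.34 above all other points.

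The microRNAs outside the family whose ratio was nearest to that of the family total, among the 24 whose mean reached 1000 counts, were mir-54, mir-235 and mir-60. Over the 2 libraries their log2 ratios were 0.17, 0.26 and 0.27, within 0.061 of the 0.21 of the family. mir-54 had 2919 and 3357 counts, mir-235 had 947 and 1157, and mir-60 had 5634 and 6964. By mean count over both libraries, the most abundant microRNAs outside the family after mir-1 were mir-80 and mir-82, with ratios closer to 1: mir-80 had 75560 and 82669 counts, a ratio of 1.07 (1.06 to 1.08), and mir-82 had 52129 and 56096, a ratio of 1.05 (1.04 to 1.06). mir-58.1, named after its values were seen, was ahead of mir-82 under control RNAi, with 55911 counts, and had 51814 under snpc-4 RNAi, a ratio of 0.906.

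mir-48 and mir-241 lie next to each other among the listed microRNA genes of chromosome V, in the order of the RefSeq table of assembly WBcel235, but their reads differed widely in number and in ratio. There were 243 reads of mir-48 per read of mir-241 under control RNAi and 113 under snpc-4 RNAi. Of the reads of the pair, mir-241 took 0.410% (0.380% to 0.443%) and 0.878% (0.837% to 0.920%), a difference of 0.47 percentage points (0.42 to 0.52). The ratio of mir-241 was 2.15 times that of mir-48 (1.97 to 2.35).

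Members of the family share their seed, and their mature sequences beyond it were not compared here. Whether the counting allowed mismatches is not stated in the sources used here, so their single counts are uncertain to that extent. The count of mir-241 equalled 0.412% of that of mir-48 under control RNAi and 0.885% under snpc-4 RNAi. The part of reads shared between members in these counts was not tested. Each member has a single row, for 1 mature product, and the tables hold no row for the opposite arm of any member, although 23 microRNA rows are such second products of other genes.

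Other pairs of neighbouring microRNA genes mostly had ratios closer to each other. There were 11 pairs of adjacent listed genes within 5 kb of each other in which both had a mean of at least 10 counts. The absolute difference in log2 ratio within a pair had a median of 0.26 and ran from 0.11 (mir-55 and mir-54) to 1.21 (mir-65 and mir-66). mir-48 and mir-241, at 1.10, ranked 2 of 11. The pair ranked 1 rests on few reads, with 9 and 16 counts for mir-65 and 18 and 13 for mir-66. The pair ranked 3 joins mir-239.2 (723 and 1377 counts) and mir-239.1 (36 and 35 counts), at 0.97. Some pairs share a gene, and this comparison was chosen after the values were seen. Pairs such as mir-239.2 with mir-239.1 and mir-82 with mir-81 join rows from different runs of the listing, described below with lin-4. mir-48 and mir-241 are in the same run, so such pairs are not a like background for them.

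**Figure D4:**
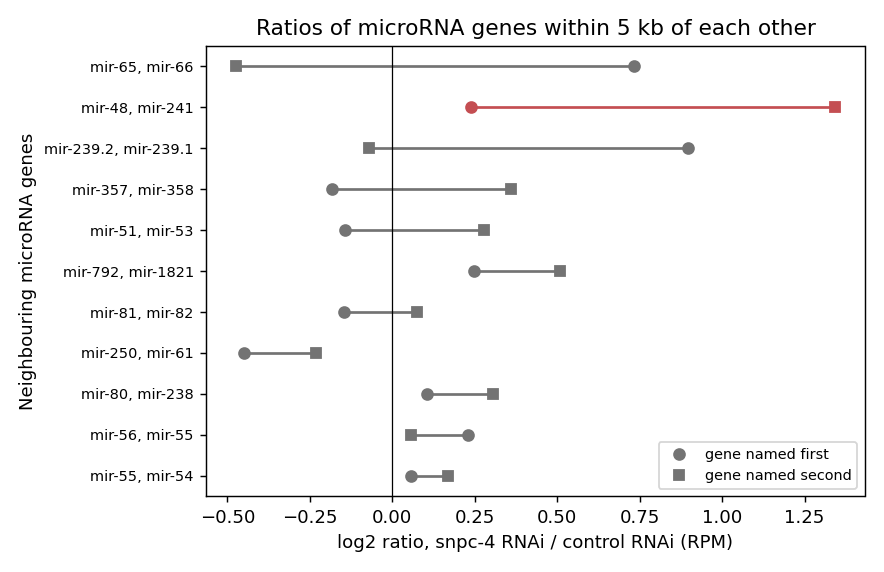
log2 ratio of RPM, snpc-4 RNAi over control RNAi (horizontal axis), of both genes of each of 11 pairs of neighbouring microRNA genes, joined by a line, with mir-48 and mir-241 in red. mir-48 lies at 0.24 and mir-241 at 1.34, a gap of 1.10, while the median gap of all 11 pairs, this pair included, is 0.26. Some pairs join rows from different runs of the listing and are not a like background.

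The remaining microRNA genes beside a member had few reads or none, apart from mir-87, on the other side of mir-48, with 401 and 537 counts. On the far side of mir-241, mir-257 had 0 counts in both libraries. On the X chromosome, let-7 lies between mir-47 (3 and 4 counts) and mir-1829.2 (0 and 1), and mir-84 lies between mir-1829.1 (0 in both) and mir-2212 (3 and 0). Other listed transcripts named after the same clones as the members had few counts or none in these tables. F56A12.6, a small nucleolar RNA, and the piRNA F56A12.7 had 0 counts in both libraries, as had the piRNAs B0395.5 and B0395.6. The tRNA B0395.t1 had 18 counts in each.

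Further relatives of the family, and other microRNAs of the heterochronic pathway, could hardly be compared. mir-793, mir-794, mir-795 and mir-1821 are counted among the let-7 relatives of C. elegans, but their seeds were not compared here. mir-1821 had 74 and 108 counts, a ratio of 1.43 (1.05 to 1.95), and the other 3 had at most 1 count in a library. lin-4, the founder of the heterochronic microRNAs, had 0 counts in both libraries, and its relative mir-237 had 15 and 12, a ratio for mir-237 of 0.782 (0.334 to 1.79). For mir-237 no difference was detectable with these counts. Zeros followed the order of listing. Of 110 microRNA rows in the first run of ascending position of each chromosome, 55.5% had 0 counts in both libraries, against 11.1% of 90 in the second run. All 4 members are in the second run, and so is mir-1821. A count of 0 is therefore no count in these tables, and not absence of the RNA. Whether rows of the first run that had reads were also undercounted was not tested. Ranks and shares of the members among microRNAs therefore describe these counts only.

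Small RNAs that mark other tissues differed between the libraries beside the family, and their part in the family's values was not tested. piRNAs, small RNAs of the germline, summed to 3176 RPM under control RNAi and 1537 RPM under snpc-4 RNAi, a ratio of 0.484 (0.478 to 0.491). The 8 microRNAs mir-35 to mir-42 of oocytes and embryos had 54 counts under control RNAi and 16 under snpc-4 RNAi, and the ratio of these sums was 0.290 (0.155 to 0.514). Of these 8, mir-41 was at 0 in both libraries. The muscle microRNA mir-1 was 1.31-fold higher, and the neuronal mir-124 and lsy-6 were at 0 in both libraries. mir-35 to mir-42, mir-124 and lsy-6 are all in the first run of listing, where zeros were frequent. Their counts and zeros carry the limit given with lin-4. In RNA from whole animals, fewer cells of a type and less RNA per cell cannot be told apart.

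The size and, for mir-84, the direction of the ratios depended on what the libraries were scaled to. Listed transcripts made up 4.69% of the RPM total under control RNAi and 5.15% under snpc-4 RNAi, and microRNAs made up 84.9% and 88.8% of the listed counts. Scaled to the microRNA total, the log2 ratios were -0.018 for mir-84, 0.025 for let-7, 0.039 for mir-48 and 1.14 for mir-241. Scaled to the listed counts other than microRNAs, they were 0.48, 0.52, 0.54 and 1.64. mir-241 stayed at least 2-fold higher under each of the 8 scalings computed, with ratios from 2.20 to 3.41.

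**Figure D5:**
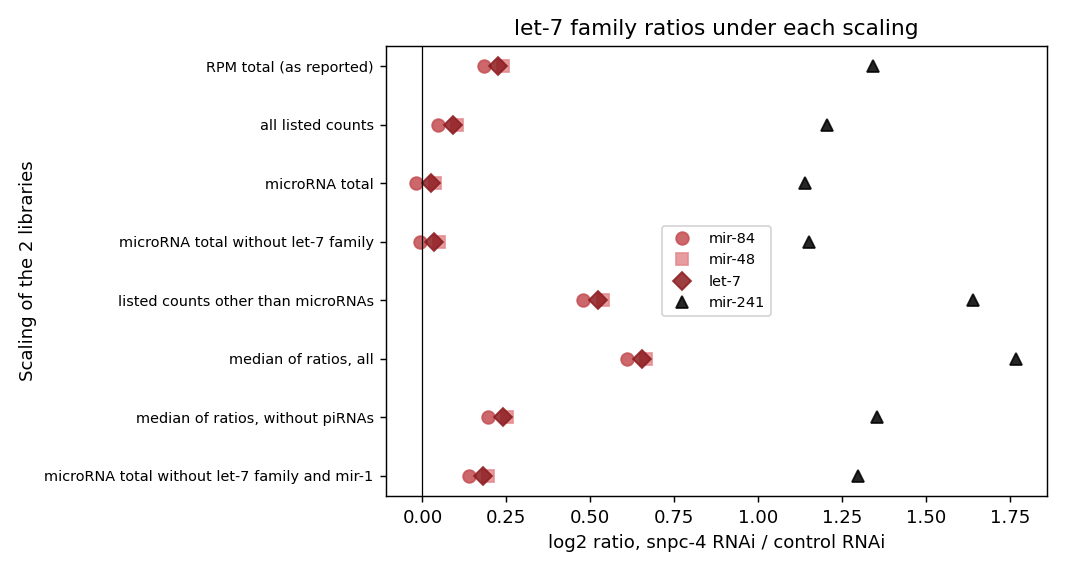
log2 ratio, snpc-4 RNAi over control RNAi (horizontal axis), of the 4 let-7 family members under each of 8 scalings of the libraries (vertical axis). mir-84, let-7 and mir-48 lie between -0.018 and 0.67, mir-84 falls below 0 under the microRNA total with or without the family, and mir-241 lies between 1.14 and 1.77.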

How the data were processed

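Per the labels' protocols, libraries were prepared from 5 µg of young adult RNA with an Illumina kit (small RNA, v1.5) and sequenced after selection for 22 to 30 nucleotides. Lengths of the counted reads were not examined. What part this selection had in the counts and ratios of single microRNAs or of piRNAs was not tested. BWA is named in the submitters' processing notes without a version. Not given in the sources used here are the genome build, annotation and counting tool. For each transcript the authors deposited a read count and an RPM value, per the file headers. The deposited RPM equals the count divided by 1 total per library; which reads that total covers is not stated.

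Rows were named by locus tag, after removal of the final letter, from RefSeq's WBcel235 gene table; 200 of 203 microRNA rows matched. The table also gave the order of genes and the 5 kb limit for neighbours. Ratios use plain counts divided by the RPM totals; log2 ratios add 1 read to each count. Shares need no scaling.

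No test was run, since each group has 1 library. The steps were tested on simulated data. Named microRNAs are the 4 members, their relatives, lin-4 and mir-237, the 3 nearest in ratio, the 3 most abundant outside the family and the chromosomal neighbours; others are marked where they appear. The members were set by identifier and not by their values, but members, lists and alternatives were all chosen with earlier results of these data known. Alternatives changed the scaling, pseudocount, minimum count, fold limit and denominators. The software was SciPy 1.17.1, NumPy 2.4.6, matplotlib 3.10.9 and pandas 2.3.3 under Python 3.11.15.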

Additional observations from a re-analysis of the deposited data

How the results depend on the processing

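Of 59 alternative values, 22 stayed close to the reported one (inside its counting interval or, for a count, less than 1.5 times away), 35 kept the direction but lay farther from it, and 2 changed sign, both for mir-84. Counting intervals are narrow at this depth, so small shifts lie outside them; every shift by scaling is the same for all members. In the order family total, let-7, mir-48, mir-241 and mir-84, the log2 ratios were 0.077, 0.090, 0.10, 1.21 and 0.047 scaled to all listed counts. They were 0.012, 0.025, 0.039, 1.14 and -0.018 scaled to the microRNA total, and 0.023, 0.036, 0.049, 1.15 and -0.0075 to that total without the family. Scaled to the listed counts other than microRNAs they were 0.51, 0.52, 0.54, 1.64 and 0.48, and by the median of ratios of all transcripts 0.64, 0.65, 0.67, 1.77 and 0.61. That median is set in large part by piRNAs, which were lower; with the median of ratios of the other transcripts they were 0.23, 0.24, 0.25, 1.35 and 0.20. Scaled to the microRNA total without the family and mir-1, a choice made after seeing the data, they were 0.17, 0.18, 0.19, 1.30 and 0.14. With 0 reads or 1 RPM added in place of 1 read, all 5 ratios stayed within their counting intervals, with 1.34 and 1.32 for mir-241.

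The difference in the family's share of microRNA counts, 0.39 percentage points, was 2.79 without mir-1, 2.16 points as a share of all listed counts, and 0.79 without mir-84, the last chosen after seeing the data. Adding mir-793, mir-794, mir-795 and mir-1821, also chosen after seeing the data and in place of a search by seed sequence that was not run, kept each share difference within its interval. With a minimum mean of 100 counts, 33 of 42 microRNAs were higher under snpc-4 RNAi. Scaled to the microRNA total, with or without the family, 37 of 76 were higher and 39 lower. By the rule above 37 counts as close to the 51 on the RPM scale, but the majority of higher values was not kept. With a limit of 1.5-fold, 10 microRNAs were past it in either direction, against 5 at 2-fold. No paired analysis was possible because each group has 1 library. With no second library, differences between animals or preparations could not be measured.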
